A study of Mus musculus with 6 samples.

Results

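Fatty acid oxidation enzymes are described here in PD-1+TIM-3+ CD8+ T cells sorted from mouse melanomas treated with interleukin-10 (IL-10) or with buffer. The set holds 39 named genes, chosen by function but with earlier results of these data known. They are acyl-CoA synthetases and thioesterases, carnitine acyltransferases, the enzymes of the mitochondrial oxidation spiral with their electron acceptors, and peroxisomal enzymes. Of these, 38 were among the 15898 genes of the deposited count table, and Acsl6 was not analysed here. All 38 were among the 15477 genes that passed the filter on low counts. Every gene of the deposited table carries an adjusted p-value of the authors.

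PMEL T cells of strain C57BL/6 carried the allele Thy1a/Cy and the transgene Tg(TcraTcrb)8Rest, a receptor for the melanocyte antigen gp100. Naive Thy1.1+ PMEL cells were transferred into mice irradiated with 4 Gy, and B16F10 melanoma cells were inoculated on day 0. From day 10 all animals carried further, activated Thy1.2+ PMEL cells and were given 4 peritumoral injections on alternate days, of PBS in one group and of 20 µg IL-10/Fc, IL-10 fused to an antibody Fc part, in the other. On day 18, 500 Thy1.1+ CD8+ cells positive for PD-1 and TIM-3 were sorted per library, giving 2 PBS and 4 IL-10/Fc libraries. Both groups thus share the irradiation, the transgenic receptor and the second T cell transfer, and the labels give neither the age of the mice nor whether animals were pooled.

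Long-chain fatty acids are trapped in the cell as acyl-CoA by synthetases. They enter mitochondria as carnitine esters through CPT1 and CPT2 and are then shortened in a repeating spiral of dehydrogenation, hydration, a second dehydrogenation and thiolysis, whose electrons reach the respiratory chain through the electron transfer flavoprotein (ETF). Peroxisomes run a parallel spiral on very-long-chain and branched substrates. In T cells, fatty acid oxidation is best known from memory and regulatory cells, while effector cells lean on glycolysis.

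The libraries held 26738871 to 36941814 counts, at which 3 counts equal 0.0855 to 0.108 CPM, the count scaled to library size. All CPM values are further scaled by TMM, a factor per library that sets the bulk of genes level between libraries. All 12 markers of CD8 T cells were listed and summed to 28328 to 35368 CPM in PBS and 37680 to 43298 CPM in IL-10/Fc, with 10 of 12 higher in IL-10/Fc and none called by edgeR. Cd8a stood at 910 and 2292 CPM in PBS and at 2896 to 3161 CPM in IL-10/Fc, so that PBS replicate 1 was the lowest, as it was for Acadl and Ech1. Pdcd1, the gene of the sorting marker PD-1, stood at 1578 and 1286 CPM against 700 to 1112 CPM. Havcr2, the gene of the sorting marker TIM-3, stood at 200 and 189 CPM against 161 to 312 CPM, with overlapping groups. Single values were read out for Cd3e, Cd8a, Cd8b1, Thy1, Pdcd1 and Havcr2 only. Among these DESeq2 called Cd8a, Cd8b1 and Thy1 higher and Pdcd1 lower, and Cd3e and Havcr2 in neither direction. Of all genes it called 3.44% higher and 1.62% lower. Markers of macrophages and monocytes, 18 of 18 listed, summed to 345 and 518 CPM in PBS and to 268, 605, 1175 and 1211 CPM in IL-10/Fc replicates 1 to 4, with 16 of the 18 higher in IL-10/Fc and none called. Of 10 dendritic cell and MHC class II markers 8 were listed, at 228 and 310 CPM against 172, 651, 1916 and 1013 CPM, while Flt3 and Clec9a were not analysed here. Of the remaining lists, NK markers (6 of 8 listed, without Ncr1 and Klra4) summed to 77.8 to 113 CPM in PBS and 119 to 532 CPM in IL-10/Fc. That list shares Tyrobp and Fcer1g with the macrophage list, so its sum is not particular to NK cells. B cell markers (2 of 6) summed to 42.5 to 42.8 and 3.92 to 15.5 CPM, and CD4 and regulatory T cell markers (2 of 5, without Cd4 and Foxp3) to 10.2 to 47.6 and 17.7 to 56.8 CPM. Neutrophil (3 of 6), melanoma (4 of 7) and fibroblast or endothelial markers (2 of 7) stayed at or below 20.4 CPM in every library. The part of these differences in the enzyme values was not tested. In bulk samples, fewer cells of a type and less RNA per cell cannot be told apart.

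IL-10/Fc was set against PBS to see whether these enzymes differ between cells sorted through the same gate. For 28 of the 38 enzymes the libraries of the groups overlapped, and no enzyme was called by edgeR (quasi-likelihood test, p adjusted by Benjamini-Hochberg over all genes tested). The mitochondrial hydroxyacyl-CoA dehydrogenase gene Hsd17b10 averaged 527 ± 115 CPM (SD, n = 4) in IL-10/Fc against 208 ± 2.36 CPM (SD, n = 2) in PBS, and the long-chain acyl-CoA dehydrogenase gene Acadl 456 ± 99.7 against 246 ± 98.4 CPM. Of the other enzymes most had a fitted value below 0, among them the very-long-chain dehydrogenase gene Acadvl and the peroxisomal reductase gene Pecr.

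Of the 38 enzymes 13 had a fitted log2 fold change above 0 and 25 below 0, that is 65.8% below, where 50.7% of all genes tested lay below 0 and 49.3% above. Their median log2 fold change was -0.29, beside -0.01 over all genes tested. With scaling by library size only the median of all genes shifted to -0.18, and that of the enzymes to -0.46 with 30 of 38 below 0. The share of all genes below 0 under that scaling is not given here. By edgeR's test 0 of 38 enzymes passed an adjusted p of 0.05, where 0.00646% of all genes passed. At an unadjusted p under 0.05 there were 2 on the higher side, Hsd17b10 and Acadl, or 5.26% against 7.2% of all genes, and 2 on the lower side, Acadvl and Pecr, or 5.26% against 5.52%. DESeq2's Wald test, which called 757 of all genes, called Hsd17b10 and Acadl higher, 5.26% of the enzymes against 3.44% of all genes, and Pecr lower, 2.63% against 1.62%. All 4 IL-10/Fc libraries lay above both PBS libraries for 4 enzymes (10.5%, against 12.1% of all genes), namely Hsd17b10, Acadl, Ech1 and Etfa. They lay below both for 6 enzymes (15.8%, against 11.5%), namely Acadvl, Acad8, Eci2, Etfdh, Decr2 and Pecr. With library size only, 9 enzymes lay below (23.7%, against 19.8% of all genes) and 2 above (5.26%, against 7.24%). The shares past a p threshold or without overlap lie near those of all genes. The share with a fitted value below 0 was higher, at 65.8% against 50.7%. That count includes barely expressed genes such as Acads, Acad10, Acad11, Acsl1 and Acsl3, whose signs cannot be read. With a filter of 20 CPM in 2 libraries 15 of 25 enzymes lay below 0, at a median of -0.21 beside -0.03 over all genes. The share of all genes below 0 under that filter is not given here.

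**Figure D1:**
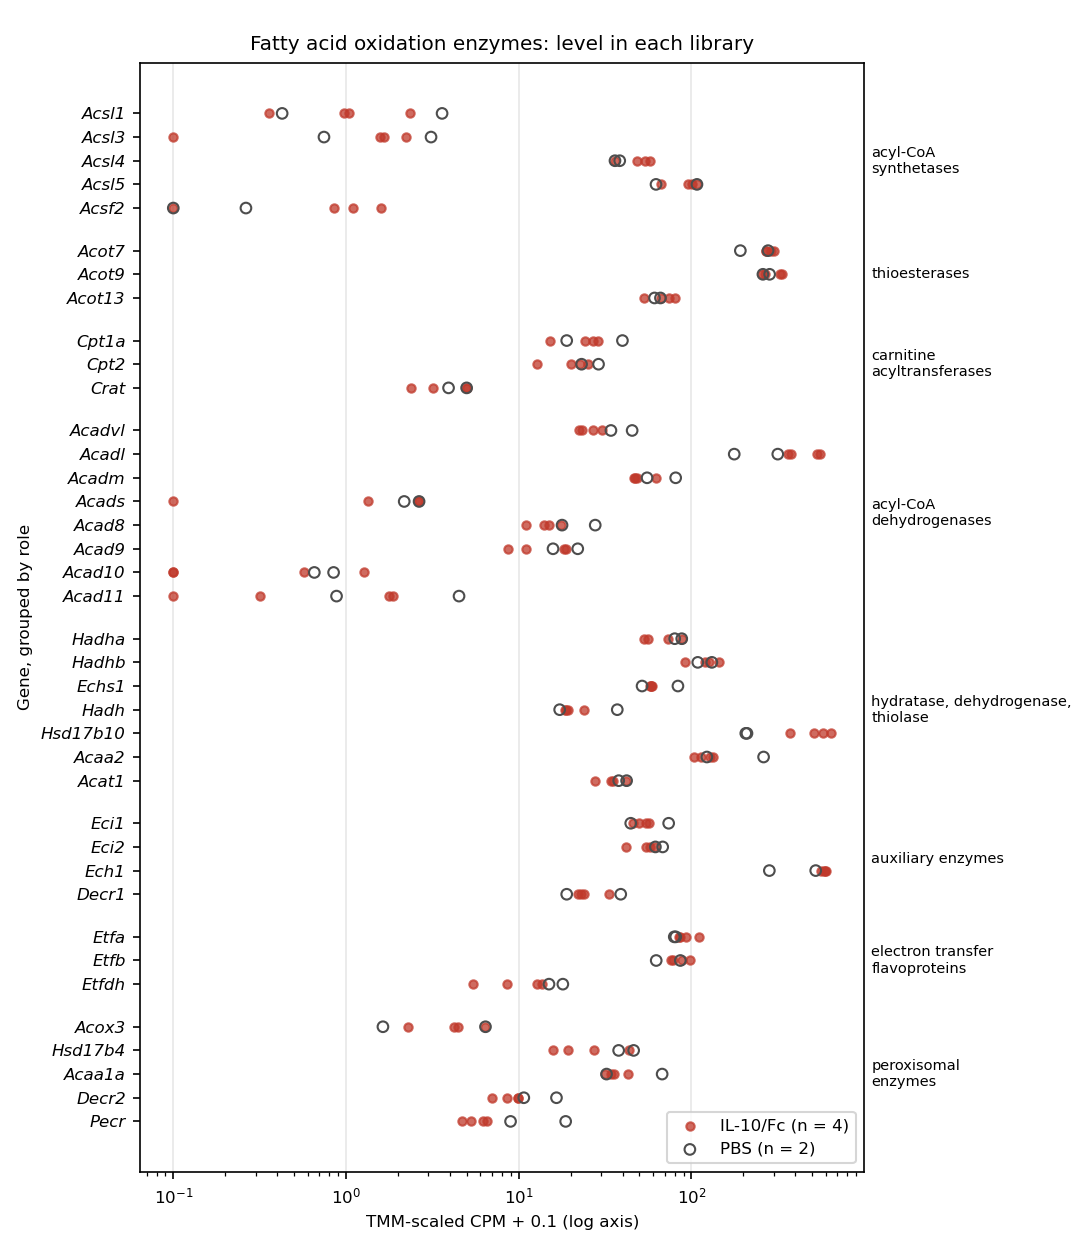
TMM-scaled CPM plus 0.1 on a log axis for the 38 enzyme genes, grouped by role, with 1 point per library (filled, 4 IL-10/Fc; open, 2 PBS); genes at 0 counts sit at 0.1. The 4 IL-10/Fc points of Hsd17b10 and of Acadl lie to the right of both PBS points, while most other genes overlap.

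The upstream bases of the 4 genes with an unadjusted p under 0.05 are shown, none of them called by edgeR. Shown too is the stretch between Hadha and Hadhb, 2 genes transcribed away from each other whose products form 1 enzyme. Sequences are from RefSeq on GRCm38.p6, 5′ to 3′ on the coding strand of the gene (for Hadha and Hadhb on that of Hadhb), and end at the last base before the start given in the deposited table or by RefSeq, whichever comes first. Capitals mark matches on either strand to AGGTCA (the repeat unit of nuclear receptor sites), TTCNNNGAA (the element of STAT factors), CCAAT or GGGCGG (GC box). The regions are chrX:152001646-152001844 for Hsd17b10 (plus strand), chr1:66863310-66863559 for Acadl, chr11:70015429-70015678 for Acadvl and chr1:72284322-72284571 for Pecr (all minus strand), and chr5:30155163-30155247 between Hadha and Hadhb.
Hsd17b10: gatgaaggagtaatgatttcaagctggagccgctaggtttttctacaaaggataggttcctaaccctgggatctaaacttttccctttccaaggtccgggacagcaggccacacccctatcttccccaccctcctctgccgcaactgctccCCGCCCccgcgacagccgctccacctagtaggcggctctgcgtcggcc
Acadl: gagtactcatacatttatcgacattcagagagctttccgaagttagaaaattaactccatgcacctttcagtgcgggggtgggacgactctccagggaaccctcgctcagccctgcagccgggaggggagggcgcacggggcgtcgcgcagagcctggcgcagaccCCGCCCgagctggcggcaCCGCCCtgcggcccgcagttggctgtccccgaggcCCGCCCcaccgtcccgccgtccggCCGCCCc
Acadvl: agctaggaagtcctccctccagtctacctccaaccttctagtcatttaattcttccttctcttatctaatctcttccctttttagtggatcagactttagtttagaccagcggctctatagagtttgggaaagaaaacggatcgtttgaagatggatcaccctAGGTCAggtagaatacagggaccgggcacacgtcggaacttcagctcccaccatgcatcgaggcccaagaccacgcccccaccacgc
Pecr: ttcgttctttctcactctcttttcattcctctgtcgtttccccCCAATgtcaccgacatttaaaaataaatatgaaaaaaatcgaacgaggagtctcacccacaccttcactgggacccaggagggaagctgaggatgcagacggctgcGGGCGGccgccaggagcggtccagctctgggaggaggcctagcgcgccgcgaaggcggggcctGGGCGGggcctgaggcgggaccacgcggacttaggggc
Hadha-Hadhb: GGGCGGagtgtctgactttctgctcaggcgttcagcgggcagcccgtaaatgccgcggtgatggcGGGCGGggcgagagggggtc

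Acadl carried 4 GC boxes in this stretch and Hsd17b10 1, Pecr held 2 GC boxes and a CCAAT match, and Acadvl held none of these but 1 AGGTCA. The 85 bases between Hadha and Hadhb held 2 GC boxes. Promoter windows were found for 31 of the 38 enzymes. Within 250 bases before the RefSeq start, 24 of the 31 (77.4%) held GGGCGG against 35.4% of all 27025 genes with a window, and 15 (48.4%) held CCAAT against 37.5%. AGGTCA stood in 4 (12.9% against 15.8%), those of Acadm, Acadvl, Cpt1a and Echs1, and TTCNNNGAA in 3 (9.68% against 8.13%), those of Cpt2, Hadha and Hadhb. The 27025 genes go beyond the 15477 tested here, to which all the enzymes belong. Shares among the tested genes alone were not taken, so the gap for GGGCGG cannot be read as particular to the enzymes. A gene with more than 1 window counts as a match if any of them holds one. These matches are descriptions of letters and were not tested as binding sites.

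Acyl-CoA synthetases, which activate fatty acids, were carried almost wholly by Acsl5 and Acsl4. Acsl5, an outer-membrane and reticulum enzyme, stood at 62.2 and 107.5 CPM in PBS and at 66.3, 108.2, 95.7 and 100.8 CPM in IL-10/Fc replicates 1 to 4. The PBS libraries bracket 3 of the 4 IL-10/Fc values, and the log2 fold change was 0.13 (SE 0.28) by TMM and -0.04 by library size only. Acsl4, which prefers arachidonate and shapes the sensitivity of membranes to peroxidation, stood at 36.0 and 38.3 CPM against 57.6, 35.9, 53.9 and 48.3 CPM. IL-10/Fc replicates 1, 3 and 4 lay above both PBS libraries and replicate 2 just under them. Per kilobase of exon, Acsl5 took 64.2% and 73.9% of the 4 Acsl genes listed in PBS, against 54.8% to 75.8%, and Acsl4 23.7% to 33.4% and 22.6% to 42.9%. Exons of Acsl5 overlap those of Zdhhc6 on the other strand (58.6 to 68.9 CPM in PBS, 30.3 to 75.5 CPM in IL-10/Fc), and reads of the 2 genes cannot be told apart there. Acsl1, the main synthetase of heart and fat, stayed at 0.257 to 3.50 CPM over the 6 libraries. Acsl3 lay at 0 to 3.01 CPM and the mitochondrial medium-chain synthetase gene Acsf2 at 0 to 1.5 CPM, too low for a fold to be read.

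The acyl-CoA thioesterases, which split acyl-CoA back into free acid, were all expressed above most of the spiral. Acot9, a mitochondrial thioesterase and the highest of the 3, stood at 283 and 259 CPM in PBS and at 326, 334, 256 and 268 CPM in IL-10/Fc. Acot7, a cytosolic long-chain enzyme, stood at 192 and 277 CPM against 298, 272, 270 and 289 CPM. Acot13, a small enzyme associated with mitochondria, lay at 61.0 and 66.0 CPM against 52.9 to 80.6 CPM. The groups overlapped for all 3, with log2 fold changes of 0.11 to 0.27 by TMM, while library size only gave -0.05 for Acot9 and -0.06 for Acot13. Acot10, a close copy of Acot9, was listed at 34.9 and 35.8 CPM in PBS and 32.2 to 40.9 CPM in IL-10/Fc, so the split of reads between them is uncertain.

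Transcripts of the 3 carnitine acyltransferases of the set were low and lay no higher in IL-10/Fc. Cpt1a, the gate of long-chain entry and the target of inhibition by malonyl-CoA, stood at 39.7 and 18.9 CPM in PBS and at 28.6, 24.1, 15.0 and 26.8 CPM in IL-10/Fc. Cpt2, which re-forms acyl-CoA in the matrix, stood at 28.9 and 23.0 CPM against 12.7, 22.4, 25.0 and 20.0 CPM. Crat, which exchanges short chains and acetyl groups, lay at 3.82 to 4.89 CPM against 2.27 to 4.90 CPM. All 3 fitted values were below 0, with log2 fold changes of -0.31 (SE 0.38), -0.37 (SE 0.29) and -0.21 (SE 0.44), and for each the 2 groups overlapped. The ratio of Cpt1a to Cpt2 per kilobase ran from 0.256 to 0.431 in PBS and from 0.188 to 0.702 over the IL-10/Fc libraries. The other CPT1 genes added little: Cpt1b stood at 0.340 and 0.784 CPM against 0 to 0.663 CPM, and Cpt1c was not analysed here. The carnitine-acylcarnitine translocase gene Slc25a20 stood at 28.1 and 20.2 CPM against 17.1 to 26.6 CPM, with overlapping groups. Crot, another carnitine gene outside the set, was higher in level, at 179 and 205 CPM against 179 to 295 CPM. Its groups overlapped, at a log2 fold change of 0.22 (SE 0.21).

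The acyl-CoA dehydrogenases open each turn, each on its own chain lengths. Acadl (ENSMUSG00000026003, chromosome 1, 66830839 to 66863277 in GRCm38), the long-chain enzyme, stood at 177 and 316 CPM in PBS and at 362, 553, 378 and 531 CPM in IL-10/Fc replicates 1 to 4. All IL-10/Fc libraries lay above both PBS libraries, but the PBS libraries differed widely, and the gap from PBS replicate 2 to IL-10/Fc replicate 1 was smaller than the gap between the PBS libraries. Acadl showed a log2 fold change of 0.89 with SE 0.30 at an edgeR adjusted p = 0.326. It was 0.53 without PBS replicate 1 and 1.37 without PBS replicate 2, and DESeq2 gave an adjusted p of 0.0383.

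Acadvl (ENSMUSG00000018574, chromosome 11, 70010183 to 70015411), the very-long-chain enzyme of the inner membrane, stood at 45.2 and 34.1 CPM in PBS and at 26.8, 22.3, 30.1 and 23.2 CPM in IL-10/Fc. All IL-10/Fc libraries lay below both PBS libraries, at a log2 fold change of -0.63 (SE 0.20) and an edgeR adjusted p = 0.299. It was -0.42 without PBS replicate 1. The exons of Dvl2 overlap this gene on the other strand, and Dvl2 itself was listed at 0.314 to 1.54 CPM in every library.

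Acadm, the medium-chain enzyme, stood at 80.9 and 55.2 CPM against 46.5, 48.4, 47.0 and 62.3 CPM, and only IL-10/Fc replicate 4 reached the range of PBS. Acads, the short-chain enzyme, lay at 2.07 and 2.55 CPM against 0 to 2.55 CPM. Acad8, which acts on the isobutyryl-CoA of valine, stood at 27.6 and 17.7 CPM against 10.8 to 17.4 CPM, without overlap of the groups but with a mean under 20 CPM. Acad9, which also assembles respiratory complex I, lay at 15.7 and 21.9 CPM against 8.55 to 18.6 CPM. Acad10 and Acad11 stayed at 0 to 4.41 CPM. Of the 8 dehydrogenases 7 were thus below 0 and Acadl alone above it, with a median log2 fold change of -0.59, where 50.7% of all genes tested lay below 0. Among the 7, Acads, Acad10 and Acad11 had SE of 1.44 to 1.88 and 0 counts in at least 1 library. Their signs cannot be read, and the median lies between the values of Acads and Acadvl.

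The balance within a library does not depend on the scaling between libraries. Counted per kilobase, Acadl took 69.6% and 84.9% of the 4 straight-chain dehydrogenases in PBS, against 89.0%, 92.7%, 88.6% and 91.5%. Acadm took 16.3% and 7.61% against 4.16% to 5.85%, and Acadvl 13.3% and 6.84% against 2.79% to 5.26%. The ratio of Acadl to Acadm per kilobase was 4.26 and 11.2 for the PBS libraries and 15.2 to 22.3 for those of IL-10/Fc. The groups did not overlap in these values, and PBS replicate 2 lay closer to the IL-10/Fc libraries than to PBS replicate 1 in the share of Acadl. These shares were chosen after the values of the single genes were seen and carry no test.

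**Figure D2:**
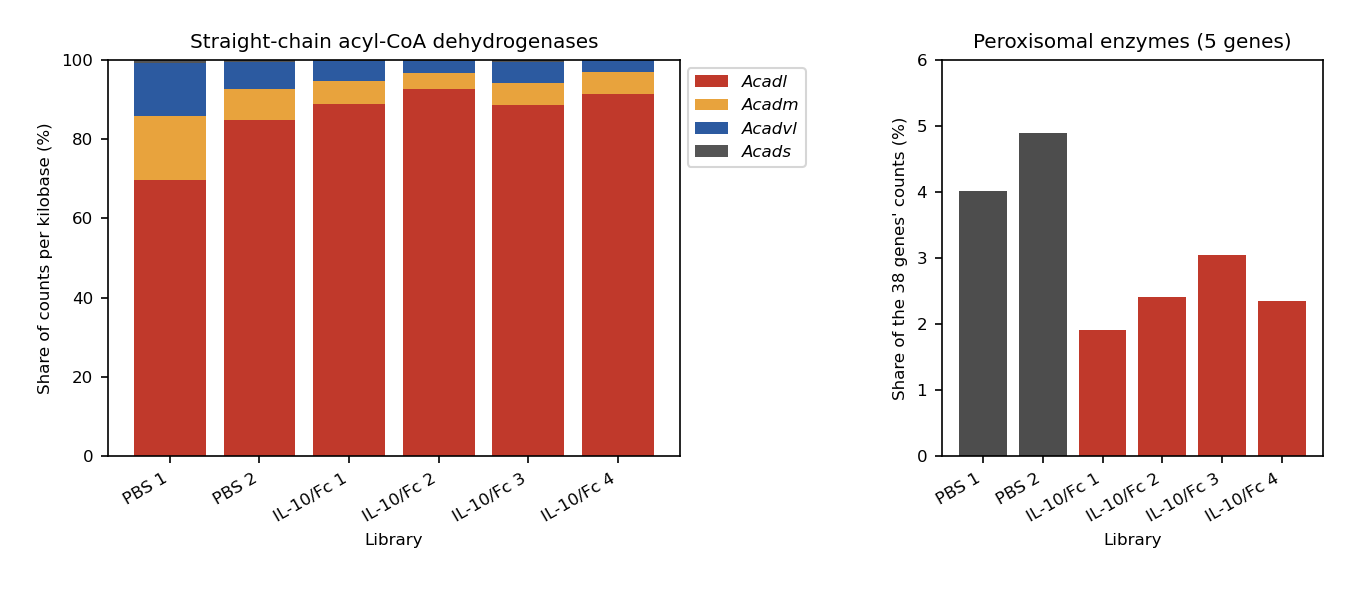
Left, the share of each straight-chain acyl-CoA dehydrogenase gene in their summed counts per kilobase of exon (%), by library. Right, the share of the 5 peroxisomal genes in the summed counts of the 38 enzymes (%). Acadl reaches 88.6% or more in each IL-10/Fc library, and the peroxisomal share is 4.02% and 4.89% in PBS, against at most 3.04%.

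Hydration, the second dehydrogenation and thiolysis are shared by the trifunctional protein, of Hadha and Hadhb, for long chains and by single soluble enzymes for short ones. Hsd17b10 (ENSMUSG00000025260, chromosome X, 152001845 to 152004442) encodes the short branched-chain hydroxyacyl-CoA dehydrogenase, which also works in isoleucine breakdown and is a subunit of mitochondrial RNase P. It stood at 210 and 206 CPM in PBS and at 643, 373, 515 and 576 CPM in IL-10/Fc replicates 1 to 4. The PBS libraries were nearly equal and every IL-10/Fc library lay above them. Hsd17b10 showed a log2 fold change of 1.34 with SE 0.22 at an edgeR adjusted p = 0.158, the smallest of the 38 enzymes.

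Leaving out single libraries kept the log2 fold change of Hsd17b10 between 1.23 and 1.47, with adjusted p of 0.19 to 0.4 by edgeR, and scaling by library size only gave 1.17. It passed with a filter of 20 CPM in 2 libraries (edgeR adjusted p = 0.0422) and with DESeq2 (adjusted p = 7.62e-07). The highest level, 643 CPM, was in IL-10/Fc replicate 1, the library in which macrophage and MHC class II markers lay below both PBS libraries and NK markers, at 119 CPM, above both. Without IL-10/Fc replicates 3 and 4, a setting chosen after seeing the data, the log2 fold change was 1.30 (edgeR adjusted p = 0.446). The part of other cells in this difference was not tested.

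The plain counterpart of Hsd17b10 for straight short chains, Hadh, stood at 37.1 and 17.2 CPM against 18.7, 19.2, 18.4 and 23.9 CPM, so the higher PBS value was from replicate 1 alone. The ratio of Hsd17b10 to Hadh per kilobase was 21.7 and 46.1 for PBS and 74.6 to 132 for IL-10/Fc. Hadha stood at 87.7 and 79.9 CPM against 53.3, 88.2, 73.4 and 56.0 CPM, and Hadhb at 131 and 109 CPM against 92.2, 125, 143 and 119 CPM. Both overlapped between groups, with log2 fold changes of -0.31 (SE 0.23) and 0.00 (SE 0.19). Per kilobase the PBS ratios of Hadha to Hadhb were 0.505 and 0.555, against 0.437, 0.531, 0.387 and 0.356, also overlapping.

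The short-chain hydratase gene Echs1 stood at 83.4 and 51.7 CPM against 57.4 to 59.2 CPM. Acaa2, the mitochondrial thiolase of medium chains, stood at 261 and 123 CPM in PBS and at 133, 128, 113 and 103 CPM in IL-10/Fc. PBS replicate 2 lay inside the range of IL-10/Fc, and the log2 fold change of -0.69 had an SE of 0.29 and an edgeR adjusted p = 0.394. Acat1, the thiolase of acetoacetyl-CoA, stood at 37.8 and 42.0 CPM against 27.5 to 41.7 CPM. Hsd17b10 and Hadhb were thus the 2 members of this step with a fitted value above 0, and 5 lay below, with a median log2 fold change of -0.21. The value of Hadhb was 0.00 (SE 0.19) and became -0.17 with library size only, so its sign cannot be read.

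**Figure D3:**
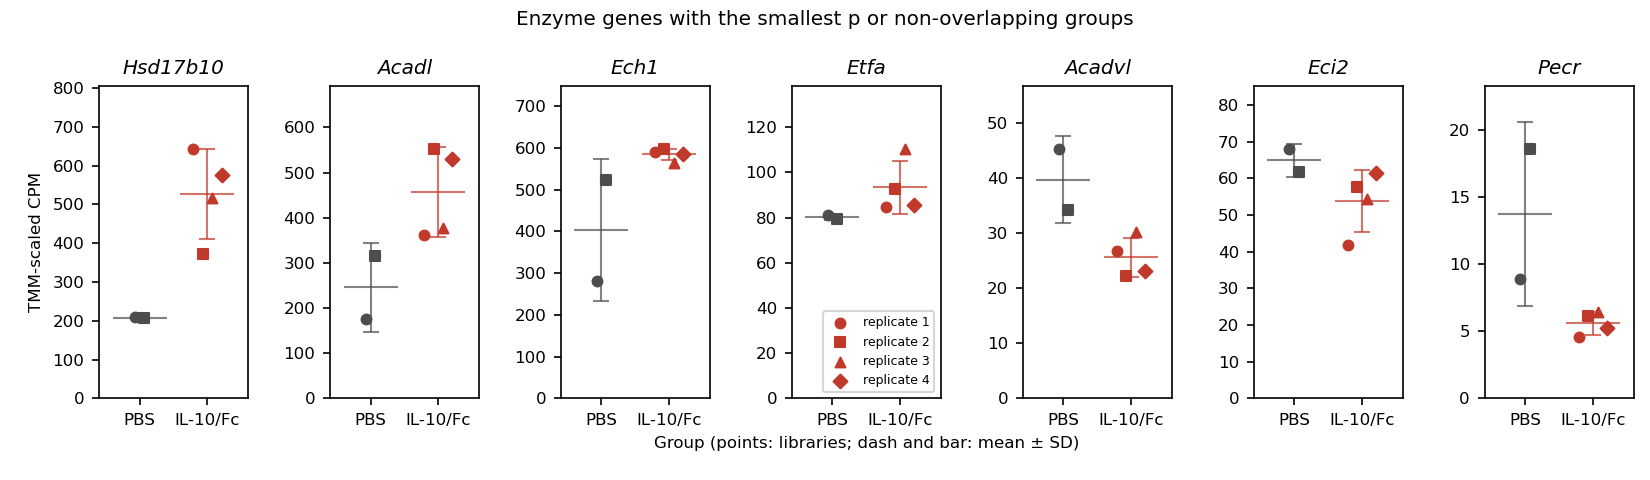
TMM-scaled CPM per library (points, shaped by replicate number) with mean ± SD for the 7 enzymes with an unadjusted p under 0.05 or with a mean of at least 20 CPM and groups that do not overlap. PBS replicates 1 and 2 nearly coincide for Hsd17b10 and Etfa and lie far apart for Acadl, Ech1 and Pecr.

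Auxiliary enzymes bring the double bonds of unsaturated acids into a form the spiral accepts. Ech1 (ENSMUSG00000053898, chromosome 7, 28825217 to 28832247), a dienoyl-CoA isomerase, stood at 282 and 524 CPM in PBS and at 590, 598, 565 and 585 CPM in IL-10/Fc. The 4 IL-10/Fc libraries agree closely and lie above both PBS libraries, but PBS replicate 2 comes near them. Ech1 showed a log2 fold change of 0.54 with SE 0.23 at an edgeR adjusted p = 0.413. It was 0.16 without PBS replicate 1 and 1.05 without PBS replicate 2, and with scaling by library size only the groups overlapped.

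Eci2 (ENSMUSG00000021417, chromosome 13, 34977748 to 35027094), an enoyl-CoA isomerase of mitochondria and peroxisomes, stood at 68.0 and 61.7 CPM in PBS and at 41.9, 57.6, 54.5 and 61.5 CPM in IL-10/Fc. IL-10/Fc replicate 4 lay just under PBS replicate 2, and Eci2 showed a log2 fold change of -0.27 with SE 0.18 at an edgeR adjusted p = 0.597. It was -0.17 without IL-10/Fc replicate 1 and -0.44 with library size only. Its mitochondrial partner gene Eci1 stood at 44.4 and 73.7 CPM against 45.7 to 57.0 CPM, and the dienoyl-CoA reductase gene Decr1 at 18.9 and 38.9 CPM against 21.9 to 33.4 CPM. For both the IL-10/Fc libraries lay between the 2 PBS libraries. The list had 1 member above 0 and 3 below, with a median log2 fold change of -0.19.

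ETF takes the electrons of the acyl-CoA dehydrogenases and passes them through its oxidoreductase to ubiquinone. Etfa (ENSMUSG00000032314, chromosome 9, 55454508 to 55512243), the alpha chain, stood at 81.0 and 79.4 CPM in PBS and at 84.9, 92.6, 110 and 85.4 CPM in IL-10/Fc. Every IL-10/Fc library lay above PBS by TMM, while the groups overlapped with scaling by library size only, where its log2 fold change of 0.22 (SE 0.14) became 0.05 (edgeR adjusted p = 0.588 by TMM). Without IL-10/Fc replicate 3 it was 0.13. Etfb, the beta chain, stood at 62.4 and 86.1 CPM against 88.0, 76.2, 77.8 and 98.5 CPM, with overlap. The oxidoreductase gene Etfdh went the other way, at 17.9 and 14.9 CPM against 8.48, 13.5, 12.6 and 5.33 CPM, with no overlap, a mean under 20 CPM and a log2 fold change of -0.72 (SE 0.40) at an edgeR adjusted p = 0.515. The ratio of Etfa to Etfb per kilobase ran from 0.585 to 0.823 in PBS and from 0.550 to 0.900 in IL-10/Fc.

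The 5 peroxisomal enzymes of the set lay lower as a sum. Their 5 genes summed to 104 and 142 CPM in PBS and to 62.9, 80.5, 98.4 and 80.9 CPM in IL-10/Fc, without overlap. As a share of the summed counts of all 38 enzymes this was 4.02% and 4.89% against 1.90%, 2.40%, 3.04% and 2.35%, a share that also moves with the higher counts of Hsd17b10 and Acadl. The 12 other peroxisomal genes tested, from the wider pathway, summed to 381 and 409 CPM in PBS and to 401 to 429 CPM in IL-10/Fc. Their sums overlapped, with 6 genes above 0 and 6 below. Pecr (ENSMUSG00000026189, chromosome 1, 72259167 to 72284314), a trans-2-enoyl-CoA reductase of chain elongation, stood at 8.87 and 18.6 CPM in PBS and at 4.59, 6.10, 6.45 and 5.22 CPM in IL-10/Fc. All IL-10/Fc libraries lay below both PBS libraries, which differed from each other. Pecr showed a log2 fold change of -1.30 with SE 0.35 at an edgeR adjusted p = 0.256. It was -1.74 without PBS replicate 1 and -0.67 without PBS replicate 2, and DESeq2 gave an adjusted p of 0.0489.

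Acaa1a, the peroxisomal thiolase and highest of the 5, stood at 32.1 and 67.5 CPM in PBS and at 31.5, 35.3, 34.1 and 42.5 CPM in IL-10/Fc, so that PBS replicate 1 matched IL-10/Fc. It is nearly identical to Acaa1b (6.22 and 13.5 CPM against 8.65 to 11.1 CPM) and overlaps exons of Myd88 on the other strand (83.4 and 74.7 CPM against 54.4 to 84.4 CPM), so its counts are uncertain. Hsd17b4, the bifunctional enzyme of very-long and branched chains, stood at 46.2 and 37.8 CPM against 15.6, 27.0, 43.2 and 19.3 CPM. IL-10/Fc replicates 1, 2 and 4 lay below PBS and replicate 3 between the PBS libraries. Decr2, the peroxisomal dienoyl-CoA reductase gene, stood at 10.6 and 16.4 CPM against 6.87 to 9.84 CPM, without overlap. Acox3, an oxidase of branched chains, stayed at 1.54 to 6.32 CPM in all libraries. The list had 1 member above 0, Acox3, and 4 below, with a median log2 fold change of -0.63.

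**Figure D4:**
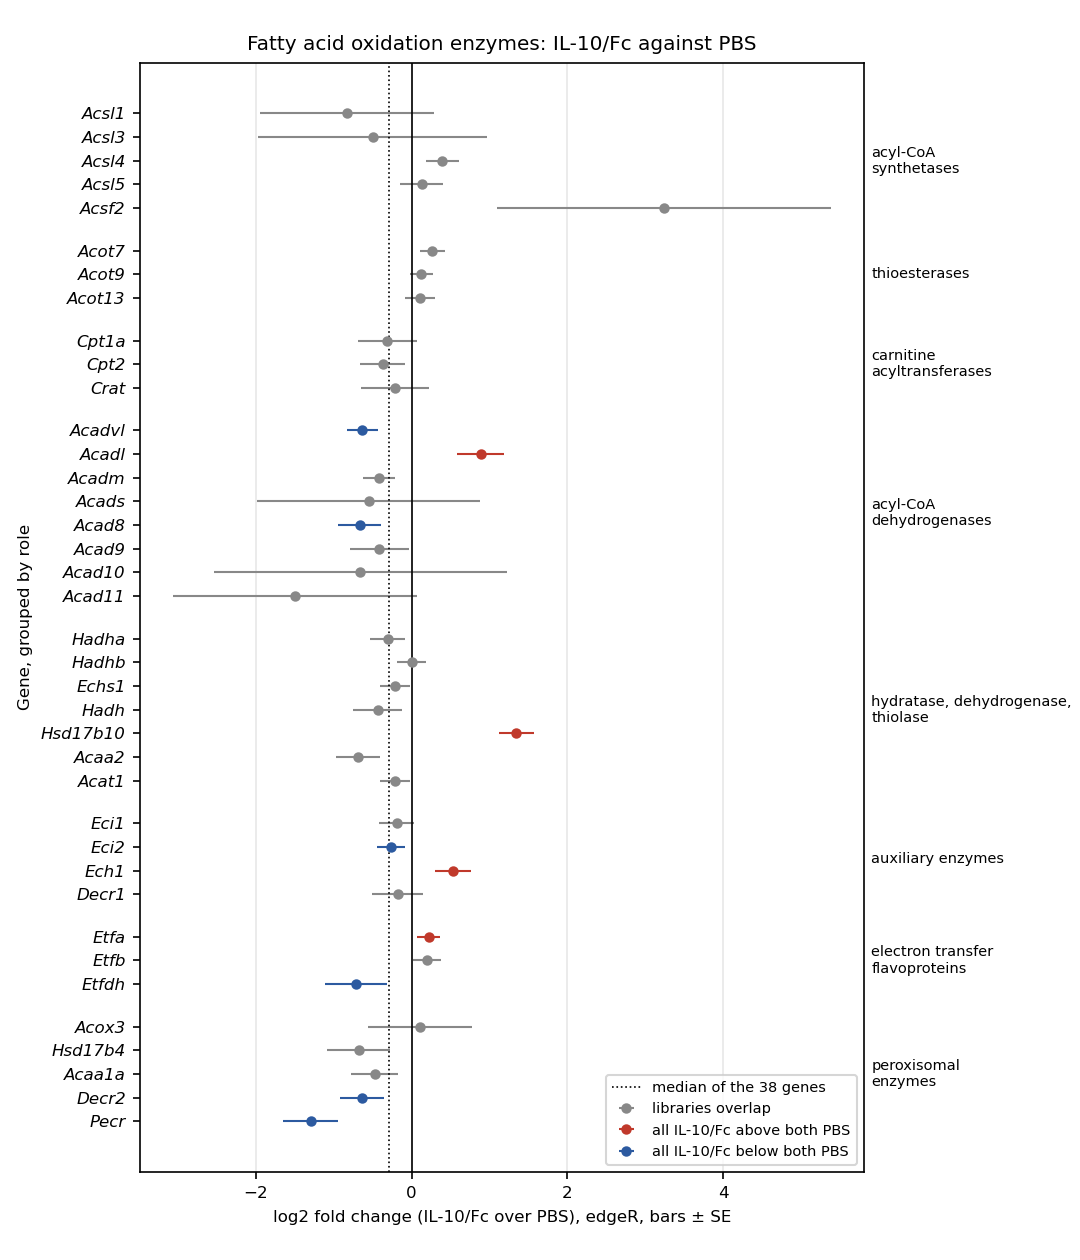
Log2 fold change of IL-10/Fc over PBS by edgeR with its standard error for the 38 enzymes, grouped by role and coloured by whether the libraries of the groups overlap. The dotted line marks their median of -0.29, and Hsd17b10 at 1.34 and Acadl at 0.89 stand to the right of all others but Acsf2, which is barely expressed and has a wide error.

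Summed over the 38 enzymes, counts were higher in IL-10/Fc, at 2589 and 2899 CPM in PBS and 3305, 3349, 3238 and 3445 CPM in IL-10/Fc. By library size only the sum averaged 2967 CPM in PBS (SD 164, n = 2) against 3204 CPM (SD 48.6, n = 4). The TMM-scaled sum over all genes tested was also higher, at 924110 against 1040421 CPM. Hsd17b10, Acadl and Ech1 together held 669 and 1046 CPM of this in PBS and 1595, 1524, 1459 and 1692 CPM in IL-10/Fc. The remaining 35 summed to 1920 and 1853 CPM against 1710, 1825, 1779 and 1753 CPM, 1886 ± 47.8 CPM (SD, n = 2) and 1767 ± 48.1 CPM (SD, n = 4). The sum and the median of the list thus differ in sign, and the sum rests on the 3 genes, which were singled out after their values were seen.

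Levels per kilobase of exon, which allow genes to be compared, spanned a wide range. The length is the union of all annotated exons, which sets genes with long rare isoforms too low. The 5 highest means over the 6 libraries were Hsd17b10 at 324, Ech1 at 229, Acadl at 193, Acot9 at 127 and Acot7 at 125 CPM per kilobase. In PBS alone the order at the top was Ech1 (176), Hsd17b10 (160), Acaa2 (127), Acadl (123) and Acot9 (119), and given the spread of the PBS libraries for Ech1, Acaa2 and Acadl these 5 neighbours cannot be ranked. In IL-10/Fc it was Hsd17b10 (406), Ech1 (256) and Acadl (227). At the lower end, Cpt1a had 3.34 CPM per kilobase, Etfdh 1.61 and Acads 0.803, while Crat, Acox3, Acsl3, Acsf2, Acad11, Acsl1 and Acad10 lay between 0.0808 and 0.736.

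Other genes of the pathway were taken from a list of 95, of which 71 were listed and tested. That list too was chosen by function with earlier results of these data known. By edgeR 0 of the 71 passed an adjusted p of 0.05, while 2 were higher and 3 lower at an unadjusted p under 0.05 (2.82% and 4.23%, against 7.2% and 5.52% of all genes). DESeq2 called Phyh higher and Aacs lower, 1.41% in each direction against 3.44% and 1.62% of all genes. Phyh, which starts the alpha-oxidation of phytanic acid in peroxisomes, stood at 52.8 and 73.7 CPM in PBS and at 91.1, 95.9, 94.1 and 92.0 CPM in IL-10/Fc. The IL-10/Fc libraries were alike and above both PBS libraries, at a log2 fold change of 0.56 (SE 0.16) and an edgeR adjusted p = 0.265, and 0.82 without PBS replicate 2 and 0.34 without PBS replicate 1. Hacl1, the lyase that follows PHYH in the same pathway, lay at 21.8 and 35.3 CPM against 8.01, 4.64, 14.6 and 18.1 CPM, at a log2 fold change of -1.33 (SE 0.54) and an edgeR adjusted p = 0.389. Without single libraries it ranged from -1.65 to -0.94, the latter without PBS replicate 2, and it was -2.17 without both IL-10/Fc replicates 3 and 4.

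Aacs, which activates acetoacetate for lipid synthesis, stood at 10.7 and 24.6 CPM against 5.03, 9.10, 5.12 and 4.62 CPM, at a log2 fold change of -1.57 (SE 0.43) and an edgeR adjusted p = 0.265, and -0.84 without PBS replicate 2. Pdk2, a kinase that restrains pyruvate dehydrogenase, lay at 1.41 to 2.85 CPM against 0.469 to 1.08 CPM (edgeR, adjusted p = 0.385), and its log2 fold change of -1.59 was -0.99 without PBS replicate 1. Pparg, a lipid-sensing nuclear receptor, was at 0 in both PBS libraries and in IL-10/Fc replicate 1, and stood at 1.26, 1.69 and 0.912 CPM in replicates 2 to 4. With 3 counts taken as the floor of each PBS library, the IL-10/Fc mean of 0.965 ± 0.718 CPM was 9.66 times that floor (edgeR adjusted p = 0.366, limma-voom adjusted p = 0.619). Because IL-10/Fc replicate 1 was at 0 as well, this is no lower bound for the groups, and the gene is too low for a fold to be read. Replicates 2 to 4 are the libraries with more macrophage markers than PBS, and the part of such cells in the Pparg counts was not tested.

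The other regulators lay low or overlapped. Ppard stood at 0.510 and 0.392 CPM against 0.235 to 0.558 CPM, and Esrra, a receptor that drives oxidative genes, at 1.70 and 0.817 CPM against 0.628 to 3.82 CPM. Ppara, Ppargc1a and Ehhadh were not analysed here. Of 11 listed uptake and binding genes 8 were above 0 (median 0.35 on the log2 scale), while 15 of 18 listed regulators were below 0 (median -0.13). Of all genes tested 49.3% lay above 0 and 50.7% below. The uptake median is the value of Slc27a4, at a mean of 1.05 CPM with an SE of 1.39. Cd36, Fabp4 and Acsf3, also above 0, averaged 0.535 to 0.978 CPM, and the regulators Ppard, Ppargc1b and Rxra, below 0, averaged 0.383 to 0.626 CPM. The signs of genes this low cannot be read. The remaining lists had medians of -0.02 for lipolysis and lipid droplets, -0.14 for other carnitine genes, -0.32 for other mitochondrial enzymes, -0.02 for other peroxisomal genes and -0.18 for ketone body enzymes.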

How the data were processed

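RNA from 6 libraries, 2 PBS and 4 IL-10/Fc, of 500 sorted T cells each was sequenced after Smart-Seq2 amplification, which marks neither molecules nor strand. The authors deposited whole-number counts per gene. The submitters' processing notes name TopHat2 2.1.1 with Bowtie2 2.2.9, Trimmomatic, DESeq2, Cuffdiff and Cufflinks 2.2.1, on GRCm38 (mm10). Which tool counted reads is not stated there. The authors' own comparison was not used. File columns number the PBS libraries 2 and 3, and the titles, 1 and 2, were followed.

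Genes were filtered with edgeR 4.0.16 (filterByExpr), scaled by TMM and tested by glmQLFTest (robust, two-sided) with group as sole term and Benjamini-Hochberg adjustment over 15477 genes. The standard error is the log2 fold change over the root of F. Alternatives used DESeq2 1.42.0, limma 3.58.1 (voom), other scalings and filters, a replicate block and left-out libraries. The fits were tested on simulated data. At the spread fitted to these data a limit on false calls was set for edgeR only. For DESeq2 and voom it was set only at a lower spread. Exon lengths are from GENCODE vM21 (GRCm38), matched by gene ID for all 38 enzymes. Depth is given in the report, and floors of 3 counts cover counting error only. The labels do not say that libraries come from separate mice, and p-values then cover only the spread among libraries, which may be technical.

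Members and lists were chosen with earlier results of these data known. Each library was given for enzymes with an unadjusted p under 0.05, or a mean of at least 20 CPM and groups without overlap, and for the highest of each role. Pathway genes were named where p was under 0.05 or DESeq2 or voom called them, and a few by level. Other values named were chosen after they were seen.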

Additional observations from a re-analysis of the deposited data

Results flagged for a closer look

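In 3 of the 52 values checked within the IL-10/Fc group, 1 library stood far from the other 3 by Dixon's criterion at 95%, where chance flags about 1 group in 20. Acadm was at 62.3 CPM in IL-10/Fc replicate 4 and at 46.5 to 48.4 CPM in the others. Hadh was at 23.9 CPM in the same library and at 18.4 to 19.2 CPM in the others. Decr1 was at 33.4 CPM in IL-10/Fc replicate 2 and at 21.9 to 23.8 CPM in the others.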

How the results depend on the processing

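The number of enzymes called was 0 in the edgeR fit and in every alternative but 2, DESeq2's Wald test with 3 (Hsd17b10, Acadl and Pecr) and the filter of 20 CPM in 2 libraries with 1 (Hsd17b10, of 25 enzymes left). Of the other pathway genes DESeq2 called 2. Over all genes edgeR called 1, DESeq2 757, the 20 CPM filter 60, and scaling by library size only, no robust option, the replicate block and leaving out IL-10/Fc replicates 3 and 4 (chosen after seeing the data) 0 each. Leaving out 1 library gave 0 to 16 calls over all genes, 16 without PBS replicate 2, and 0 for the enzymes and pathway genes each time. The enzymes' median log2 fold change of -0.29 became -0.46 with library size only and -0.20 with the replicate block, and ranged from -0.31 to -0.16 with single libraries left out, -0.16 without PBS replicate 1. With library size only the log2 ratio of summed CPM went from 0.18 to 0.013 for thioesterases and from 0.14 to -0.027 for ETF genes. None of the 12 genes followed changed direction in the settings that held them, and some were filtered out in single settings. They were chosen for a small p, a call or groups without overlap, which favours a kept direction. Trmt10c, not chosen that way, went from 0.08 to -0.09 with library size only. The cause of these shifts was not tested. Whether replicate numbers pair the libraries could not be settled. Deviations of same-numbered libraries correlated at 0.0639 and 0.0162, but with 2 PBS libraries the deviations mirror each other. By the titles, IL-10/Fc replicates 3 and 4 have no PBS partner, and a block by the column numbers was not fitted. With the block no call was gained among the enzymes. At 2 against 4 libraries and a biological coefficient of variation of 0.543, the number of libraries limits the precision.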

Other observations

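Hsd17b10 also serves in mitochondrial RNase P with the products of Trmt10c and of 1110008L16Rik, which RefSeq names Prorp, 2 genes looked at after the values of Hsd17b10 were seen. Trmt10c stood at 8.22 and 9.70 CPM in PBS and at 5.96, 11.9, 10.6 and 9.52 CPM in IL-10/Fc, with a fitted log2 fold change of 0.08 (edgeR, adjusted p = 0.959) that was -0.09 with scaling by library size only. The other, 1110008L16Rik, stood at 5.16 and 5.82 CPM against 2.21, 7.67, 6.56 and 0.998 CPM, a log2 fold change of -0.33 (edgeR, adjusted p = 0.923). For both genes the groups overlapped, while those of Hsd17b10 did not. Whether the genes differ from each other in their response was not tested.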
